A study of Mus musculus with 32 samples.

Results

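The genes described here encode the signal-carrying chains of the T cell receptor (Cd3d, Cd3e, Cd3g and Cd247), the kinase and the adaptor that act directly behind them (Zap70 and Lat), the coreceptors (Cd4, Cd8a and Cd8b1) and the adhesion receptor Cd2. Members were all probe sets whose symbol in the probe-to-gene table of the array was 1 of these 10 names. That gave 10 of the 18193 genes with a probe set of 1 symbol, and 20 of the 45037 probe sets used. Cd247 had 4, Zap70 3, Cd4 2 and Cd8a 5, and each of the other genes had 1. Cd2 belongs to the set because the transgene, labelled CD2-CD30L, uses a Cd2 promoter.

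The transgenic group held CD30L transgenic mice, in which CD30 ligand (gene symbol Tnfsf8, a TNF family protein) is made constitutively in T cells, and the wild type group held their non-transgenic littermates. All were female C57BL/6 mice aged 12 weeks, with 4 mice in each genotype, and each mouse gave a peripheral lymph node, a mesenteric lymph node, a spleen and a thymus sample, so there were 32 arrays. The labels do not say how many transgenic lines there were or whether the Cd2 promoter was human or murine. The only Tnfsf8 probe set differed by -0.10 to 0.07 log2 units between transgenic and wild type arrays over the 4 tissues (limma adjusted p from 0.893 to 0.984), and since the sources do not say whether the construct holds the sequence it reads, it checks neither the labels nor the transgene.

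As background, the T cell receptor has no signalling tail of its own. Its antigen-binding chains sit in the membrane with the CD3 gamma, delta and epsilon chains and the zeta chain encoded by Cd247, and the tails of these partners are phosphorylated when antigen is bound. The kinase ZAP-70 docks on the phosphorylated tails and in turn phosphorylates the adaptor LAT, on which the later signalling proteins assemble. CD4 and CD8 bind MHC molecules beside the receptor and bring the kinase LCK to it. Most cells of the thymus carry both coreceptors at once, whereas a mature T cell of lymph node or spleen keeps 1 of them. CD2 binds CD48 in the mouse and is found on T cells, natural killer cells and, in the mouse, also on B cells.

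The RefSeq order of protein-coding genes places Cd3g, Cd3d and Cd3e next to each other on chromosome 9, and Cd8b1 and Cd8a next to each other on chromosome 6. RefSeq promoters of build GRCm38.p6, of 250 bases before to 50 bases after the start of transcription, were at hand for 7 of the 10 genes. ETS, RUNX, TCF and GATA factors and the E proteins, which bind E-boxes, are known regulators of T cell genes. Their motifs were searched on both strands as AGGAAG for ETS, TGTGGT for RUNX, CAGCTG for the E-box, which reads the same on both strands, CTTTGA for TCF and AGATAA for GATA. Of all 32851 promoters of that length, 35.4% held the ETS letters, 16.8% the RUNX letters, 16.3% the E-box, 16% the TCF letters and 11.2% the GATA letters. The promoters of the CD3 neighbours, whose levels ran together on these arrays, and of the coreceptor gene Cd8a are shown with every match in capitals, 5′ to 3′ on the strand of the gene.
Cd3g (chr9:44980382-44980681, minus strand): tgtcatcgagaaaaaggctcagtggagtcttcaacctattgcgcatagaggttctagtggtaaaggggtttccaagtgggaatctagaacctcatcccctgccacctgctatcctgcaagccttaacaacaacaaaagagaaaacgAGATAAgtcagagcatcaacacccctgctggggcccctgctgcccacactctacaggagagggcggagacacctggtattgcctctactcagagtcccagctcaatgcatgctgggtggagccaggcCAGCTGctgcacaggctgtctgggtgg
Cd3d (chr9:44981536-44981835, plus strand): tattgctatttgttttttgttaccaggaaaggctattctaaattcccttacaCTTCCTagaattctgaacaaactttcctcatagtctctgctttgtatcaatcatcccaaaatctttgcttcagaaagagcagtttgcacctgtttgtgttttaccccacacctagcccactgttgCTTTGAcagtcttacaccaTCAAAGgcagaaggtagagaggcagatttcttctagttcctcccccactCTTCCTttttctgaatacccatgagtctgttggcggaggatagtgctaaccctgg
Cd3e (chr9:45009562-45009861, minus strand): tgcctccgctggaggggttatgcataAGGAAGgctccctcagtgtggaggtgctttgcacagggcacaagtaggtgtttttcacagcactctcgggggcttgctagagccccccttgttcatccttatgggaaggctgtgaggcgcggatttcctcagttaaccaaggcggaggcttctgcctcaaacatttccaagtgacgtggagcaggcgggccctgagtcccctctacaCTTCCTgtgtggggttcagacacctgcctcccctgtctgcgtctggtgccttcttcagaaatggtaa
Cd8a (chr6:71373177-71373476, plus strand): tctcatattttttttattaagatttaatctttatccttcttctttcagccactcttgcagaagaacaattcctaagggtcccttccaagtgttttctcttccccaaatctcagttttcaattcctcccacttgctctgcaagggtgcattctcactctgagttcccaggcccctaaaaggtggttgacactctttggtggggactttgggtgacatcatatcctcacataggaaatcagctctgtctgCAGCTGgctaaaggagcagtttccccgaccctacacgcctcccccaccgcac
The Cd3d window held ETS and TCF letters, the Cd3e window held ETS letters, the Cd3g window held the GATA letters and the E-box, and the Cd8a window held the E-box. None of the matches overlapped another. A match is a description of these letters and not a site, and a window without a match says nothing about the factor.

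The tissue labels were checked against marker lists on values normalised over all 32 arrays. The immature thymocyte list (11 of 12 genes measured, among them Rag1) averaged 10.90 to 11.02 log2 units in thymus and at most 7.85 elsewhere. The erythroid list averaged 9.51 to 11.31 in spleen and at most 6.44 elsewhere. No list was made to mark 1 kind of lymph node, so the node labels were not checked. Some lists did differ between the nodes. The natural killer cell list averaged 7.83 to 8.10 in peripheral and 7.25 to 7.58 in mesenteric nodes. For the macrophage list the ranges were 10.40 to 10.82 and 10.83 to 11.21. Some arrays carried other material or more degraded RNA. The exocrine pancreas list (11 of 14 genes measured), normalised within the tissue, reached 12.48 to 12.61 in the mesenteric nodes of transgenic mice 3 and 1 and 13.25 in that of wild type mouse 2, against 4.92 to 5.26 on the 5 other arrays of that tissue. The signal ratio of 3' to 5' probe sets of Actb, which grows as RNA breaks down, was 2.83 to 3.58 in the spleens of mice 1 and 2 of both genotypes, against 1.65 to 1.85 in those of mice 3 and 4. Where these values move with a member they stand beside it below. The labels name no batch.

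Of the genes, 9 formed 1 ladder over the tissues. Values here are log2 of the deposited intensity plus 16 after quantile normalisation over all 32 arrays, from 1 representative probe set per gene, the 1 with the highest mean. In both genotypes Cd3d, Cd3e, Cd3g, Cd247, Lat, Zap70, Cd4, Cd8a and Cd8b1 had their highest mean in thymus, then in peripheral lymph node, then in mesenteric lymph node, and their lowest in spleen. All 4 thymus values of each of these genes lay above all 4 peripheral lymph node values, in transgenic and in wild type mice alike. Neighbours further down were closer. Peripheral and mesenteric lymph node values overlapped for Cd3e, Cd3g, Lat, Zap70, Cd8a and Cd8b1 in transgenic mice and for Cd247, Zap70, Cd4 and Cd8b1 in wild type mice. Mesenteric lymph node and spleen values overlapped for Cd3d, Cd8a and Cd8b1 in transgenic mice and for Cd8a alone in wild type mice.

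**Figure D1:**
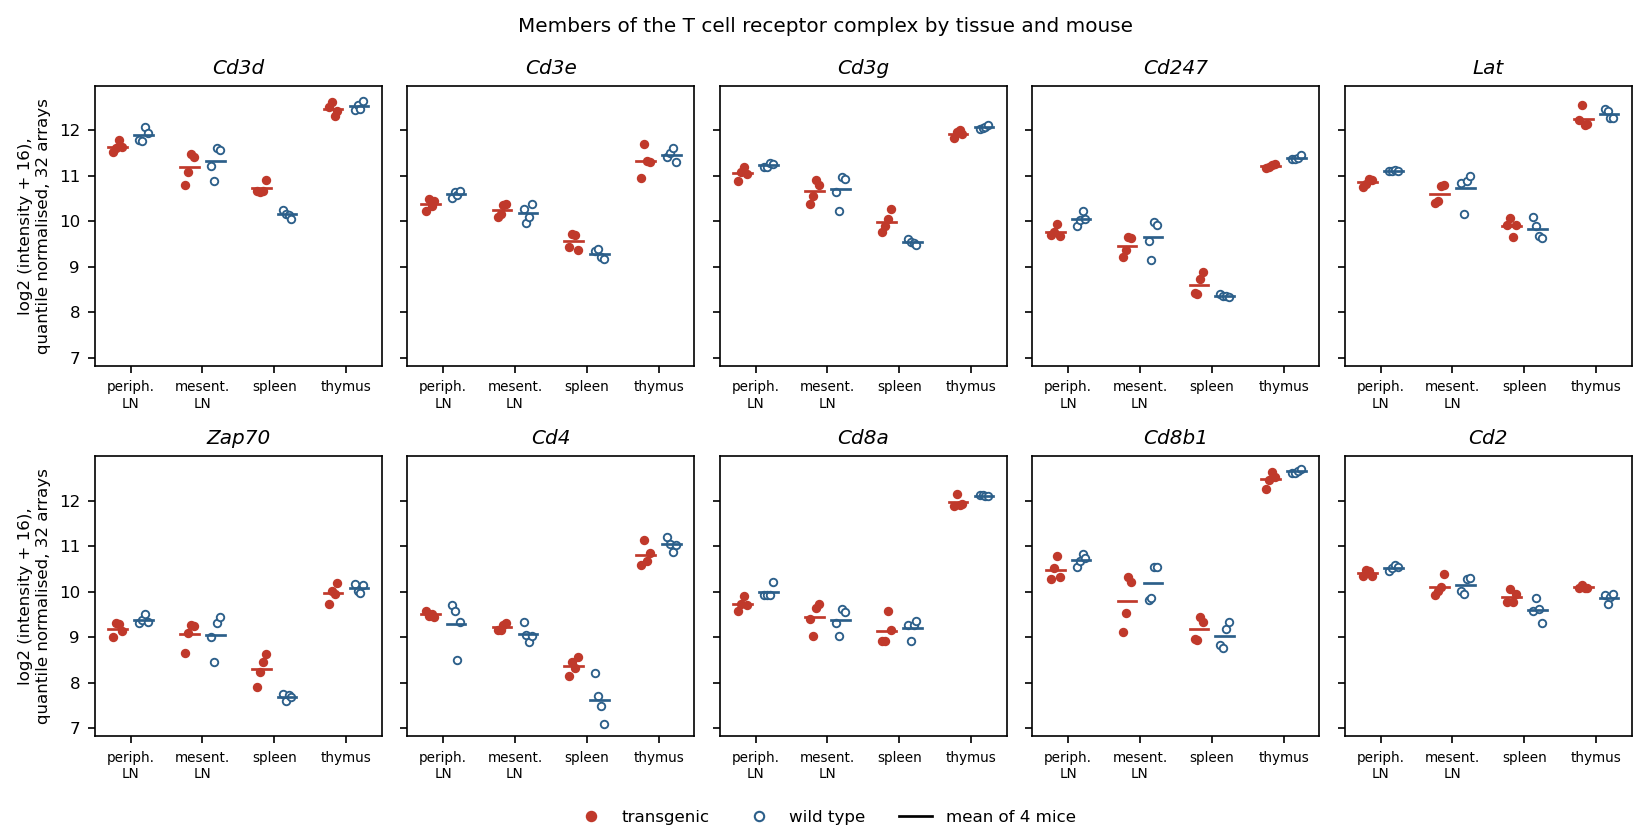
Each panel plots 1 gene, with 1 point per mouse (filled for transgenic, open for wild type, 4 of each per tissue) and the mean as a line; the vertical axis is log2 of the intensity plus 16, quantile normalised over 32 arrays. In all, 9 genes stand highest in thymus and lowest in spleen, and Cd2 stands highest in peripheral lymph node with a span of only 0.51 in transgenic and 0.93 in wild type means.

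The span of the ladder, from the thymus to the spleen mean, differed from gene to gene. Among the representatives it was widest for Cd8b1 (3.30), Cd8a (2.82) and Cd247 (2.61) in transgenic mice and for Cd8b1 (3.62) and Cd4 (3.41) in wild type mice. Of the other Cd8a probe sets, 3 had wider spans in wild type mice, of 3.92, 4.10 and 4.25. In wild type mice Cd8b1, the beta chain of CD8, read 12.62, 12.62, 12.67 and 12.70 in thymus, against 8.83, 8.76, 9.19 and 9.33 in spleen. No thymus value came near a spleen value, and the difference was 3.62 ± 0.17 log2 units, or 12.3-fold (SE, n = 4; limma adjusted p = 1.86e-10). Cd4, the coreceptor for MHC class II, read 11.21, 11.06, 10.87 and 11.04 in wild type thymus, against 8.23, 7.70, 7.49 and 7.10 in wild type spleen, a 10.6-fold difference (3.41 ± 0.25). Among the receptor chains Cd247 had the widest span, with 11.38, 11.36, 11.38 and 11.45 in thymus, against 8.41, 8.36, 8.35 and 8.33 in spleen (3.03 ± 0.14, 8.18-fold). The CD3 genes Cd3g, Cd3d and Cd3e differed by 2.52 ± 0.13, 2.38 ± 0.14 and 2.18 ± 0.10, and Lat and Zap70 by 2.54 ± 0.16 and 2.38 ± 0.16. In these bulk tissues fewer T cells and less RNA per T cell cannot be told apart.

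Between thymus and peripheral lymph node, both rich in T cells, the size of the difference varied among the members. In wild type mice 9 members were higher in thymus and 1 was lower, beside 28.7% of all probe sets called higher and 28.6% called lower. The receptor chains Cd3d, Cd3g and Cd3e were higher by 0.64 ± 0.14, 0.83 ± 0.13 and 0.86 ± 0.10, and Zap70 by 0.69 ± 0.16. Lat and Cd247 were higher by 1.25 ± 0.16 and 1.34 ± 0.14. The representatives of the coreceptors had the 3 highest values, with Cd4 at 1.76 ± 0.25, Cd8b1 at 1.95 ± 0.17 and Cd8a at 2.12 ± 0.13, so Cd8a was 4.35 times as high in thymus as in peripheral lymph node and Cd3d 1.56 times. Differences between genes were not tested. Against mesenteric lymph node 9 members were higher in wild type thymus (background 29.1%), from 1.02 ± 0.16 for Zap70 to 2.74 ± 0.13 for Cd8a. Against spleen the same count of 9 was higher (background 26.7%), and the median of the members was 2.53, beside 0.05 over all probe sets tested.

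Cd2 did not follow the ladder. In wild type mice it read 9.94, 9.73, 9.88 and 9.94 in thymus, against 10.46, 10.52, 10.59 and 10.54 in peripheral lymph node, and the groups did not overlap. It was the only member lower in thymus than in peripheral lymph node (-0.65 ± 0.12, limma adjusted p = 0.000204). Its thymus level did not pass the test against mesenteric lymph node (-0.27 ± 0.12, adjusted p = 0.0637) or against spleen (0.27 ± 0.12, adjusted p = 0.0653). The order was peripheral lymph node, mesenteric lymph node, thymus and spleen in both genotypes. In wild type mice spleen and thymus overlapped, and in transgenic mice peripheral and mesenteric lymph node and mesenteric lymph node and thymus overlapped.

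Spleen lay below the lymph nodes. All 10 members were lower in wild type spleen than in wild type peripheral lymph node (background 21.2%), from -1.74 ± 0.14 for Cd3d to -0.79 ± 0.13 for Cd8a, with Cd2 at -0.93 ± 0.12. Against mesenteric lymph node 9 were lower (background 18.5%) and the representative of Cd8a did not pass the test, at -0.17 ± 0.13 (adjusted p = 0.328). The other Cd8a probe sets disagreed with it in size: 1440164_x_at was lower, at -0.88 ± 0.13 (adjusted p = 0.000129), as were 1425335_at at -0.70 ± 0.12 (0.000304) and 1451673_at at -0.97 ± 0.26 (0.00891), while 1440811_x_at did not pass at -0.45 ± 0.32 (0.289). Without normalisation, when the median of all probe sets was 0.33 higher in spleen than in mesenteric lymph node, Cd8a turned to 0.22 and 5 of the 10 were called. The lymph nodes themselves differed less. In mesenteric against peripheral lymph node of wild type mice 4 of the 10 passed the test, all lower (background 0.988%): Cd8a at -0.62 ± 0.13 (adjusted p = 0.0193), Cd3g at -0.53 ± 0.13 (0.0405), Cd3d at -0.57 ± 0.14 (0.0423) and Cd3e at -0.42 ± 0.10 (0.0444). With the mouse as a block, since each animal gave both nodes, only Cd8a passed (adjusted p = 0.0157). Without the block, none passed once any 1 wild type mouse was left out, with its arrays of all tissues. Wild type mouse 2, whose mesenteric array held the most pancreas transcripts, also had the lowest mesenteric CD3 values of its group, and the part of that tissue in the difference was not tested.

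The comparison of transgenic with wild type mice asked what carrying CD30L on T cells goes with in each tissue. No member passed the limma test in any tissue at an adjusted p under 0.05. The background was as thin: of 27022 probe sets, 0.037% were called for peripheral lymph node, 0.0111% for spleen, 0.0037% for thymus and 0% for the mesenteric node. The values below were normalised within each tissue and are given mouse by mouse, in the order of mice 1 to 4. At an unadjusted p under 0.05 there were 5 members in spleen, all higher in transgenic mice (background 4.22% higher), 5 in peripheral lymph node, all lower (4.15% lower), 1 in thymus, higher (3.97% higher), and 0 of the 10 in the mesenteric node (4.71% in either direction). The median difference of the 10 genes was 0.28 in spleen, -0.22 in peripheral lymph node, -0.12 in thymus and -0.03 in the mesenteric node, while the median of all probe sets lay between -0.01 and 0.01.

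**Figure D2:**
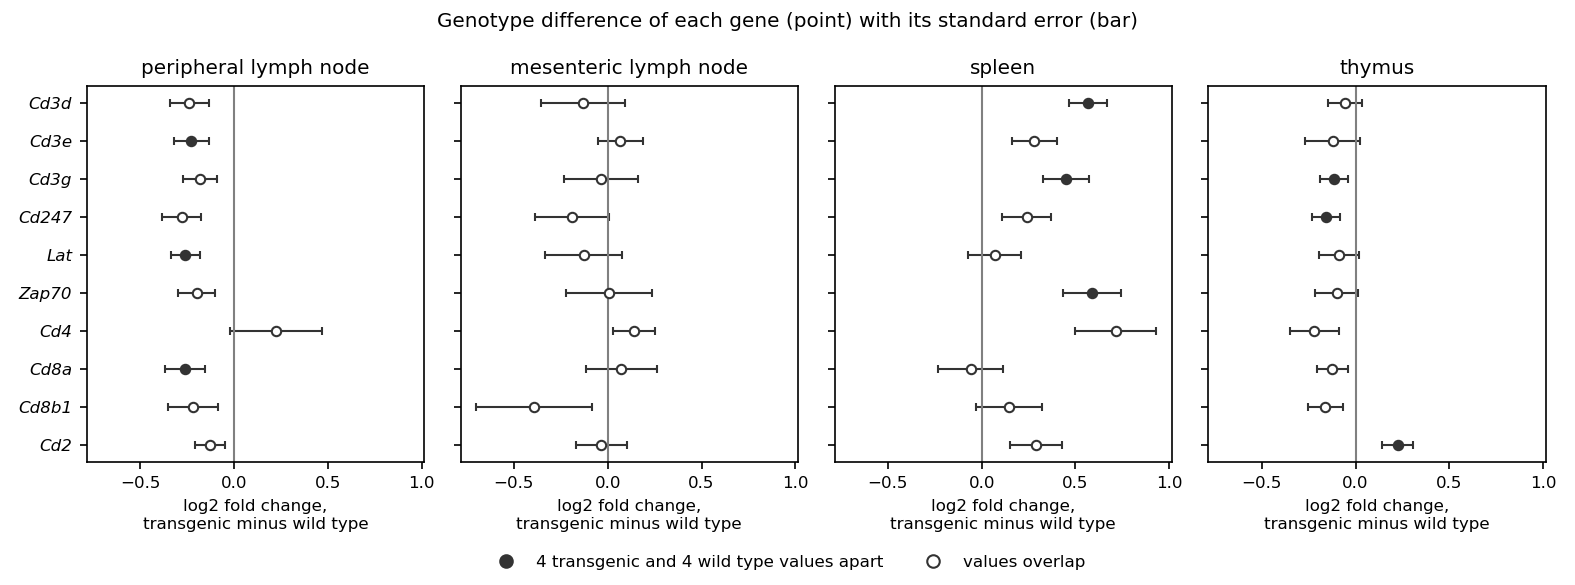
Points give the transgenic minus wild type difference of each gene in log2 units with its standard error as a bar, 1 panel per tissue, 4 mice per genotype; filled points mark genes whose 4 transgenic and 4 wild type values lie apart. Most genes sit left of 0 in peripheral lymph node and thymus and right of 0 in spleen, with Cd4 the exception in peripheral lymph node, Cd2 in thymus and Cd8a in spleen; no gene passed the adjusted test.

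In spleen Cd3d, Cd3g and Zap70 had all transgenic values above all wild type values, 3 of the 10 members beside 2.8% of all probe sets, and the other members overlapped. Cd3d, the delta chain, read 10.73, 10.71, 10.73 and 10.95 in transgenic spleens, against 10.30, 10.23, 10.20 and 10.12 in wild type spleens. Every transgenic value was above every wild type value, and the difference was 0.57 ± 0.10, or 1.48-fold (adjusted p = 0.413, 26th smallest p of all probe sets in that tissue). In 1 fit over all 32 arrays, which shares the spread between tissues, this gene alone of the 10 passed the test (0.57, adjusted p = 0.0422). That fit called 223 of the 27022 probe sets in spleen, against 3 in the fit of spleen alone. Cd3g, the gamma chain, read 9.82, 9.97, 10.11 and 10.32 in transgenic spleens, against 9.67, 9.61, 9.59 and 9.55 in wild type spleens. These groups did not overlap either (0.45 ± 0.12, adjusted p = 0.535). Cd3e, the epsilon chain, read 9.51, 9.78, 9.77 and 9.44 in transgenic spleens, against 9.41, 9.45, 9.28 and 9.24 in wild type spleens. The lowest transgenic value fell just below the highest wild type one (0.28 ± 0.12, adjusted p = 0.573). Cd247, the zeta chain, read 8.48, 8.46, 8.79 and 8.94 in transgenic spleens, against 8.47, 8.42, 8.42 and 8.40 in wild type spleens. Transgenic mice 1 and 2 were at the wild type level and mice 3 and 4 were above it (0.24 ± 0.13, adjusted p = 0.648).

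Neither the kinase nor the adaptor passed the test in spleen. Zap70 read 7.99, 8.31, 8.52 and 8.69 in transgenic spleens, against 7.85, 7.70, 7.82 and 7.79 in wild type spleens. The groups lay apart, and the transgenic values were more spread than the wild type ones, with SDs of 0.31 and 0.06 (0.59 ± 0.15, adjusted p = 0.528). The other Zap70 probe sets had 0.20 and -0.00 in spleen. Lat read 9.98, 10.14, 9.71 and 9.98 in transgenic spleens, against 10.14, 9.96, 9.75 and 9.69 in wild type spleens, and the groups overlapped almost fully (0.07 ± 0.14, 95% interval -0.27 to 0.41). Cd2 read 9.83, 10.13, 9.83 and 10.02 in transgenic spleens, against 9.65, 9.92, 9.69 and 9.39 in wild type spleens, and 1 wild type value reached into the transgenic range (0.29 ± 0.14, adjusted p = 0.602).

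No coreceptor passed the test in spleen, and the genotypes overlapped for all 3. Cd4 read 8.22, 8.52, 8.38 and 8.63 in transgenic spleens, against 8.30, 7.79, 7.59 and 7.22 in wild type spleens. Wild type mouse 1 lay among the transgenic mice and the other wild type mice lay below them (0.71 ± 0.22, 95% interval 0.18 to 1.25, adjusted p = 0.540). Cd8a read 8.99, 8.98, 9.64 and 9.22 in transgenic spleens, against 9.34, 8.98, 9.34 and 9.41 in wild type spleens (-0.06 ± 0.17, 95% interval -0.48 to 0.36). Cd8b1 read 9.03, 9.02, 9.51 and 9.39 in transgenic spleens, against 8.89, 8.82, 9.26 and 9.40 in wild type spleens (0.15 ± 0.18, 95% interval -0.28 to 0.58). Every Cd8b1 value of mice 1 and 2, whose spleens had the high Actb ratio, lay below every value of mice 3 and 4. The part of RNA integrity in that split was not tested.

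The size of these spleen differences depended on which mice were taken. With mice 3 and 4 alone the difference was 0.68 for Cd3d, 0.64 for Cd3g, 0.81 for Zap70, 0.46 for Cd247 and 1.10 for Cd4, and with mice 1 and 2 alone it was 0.45, 0.25, 0.38, 0.02 and 0.32 for the same genes in that order. The spleens of mice 1 and 2 were those with the high Actb ratio. The erythroid list (11 of 16 genes measured, none at 0 on all spleen arrays) averaged 9.58 to 10.69 in transgenic spleens and 10.37 to 11.37 in wild type spleens. Transgenic mouse 4 had the lowest erythroid value and the highest CD3 mean of the 8, and wild type mouse 4 had the highest erythroid value and the lowest CD3 mean. The part of red cell precursors in the spleen differences was not tested. Without normalisation the median of all probe sets was 0.17 lower in transgenic spleens, and the members' median was 0.08, which is 0.25 above that shift.

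**Figure D3:**
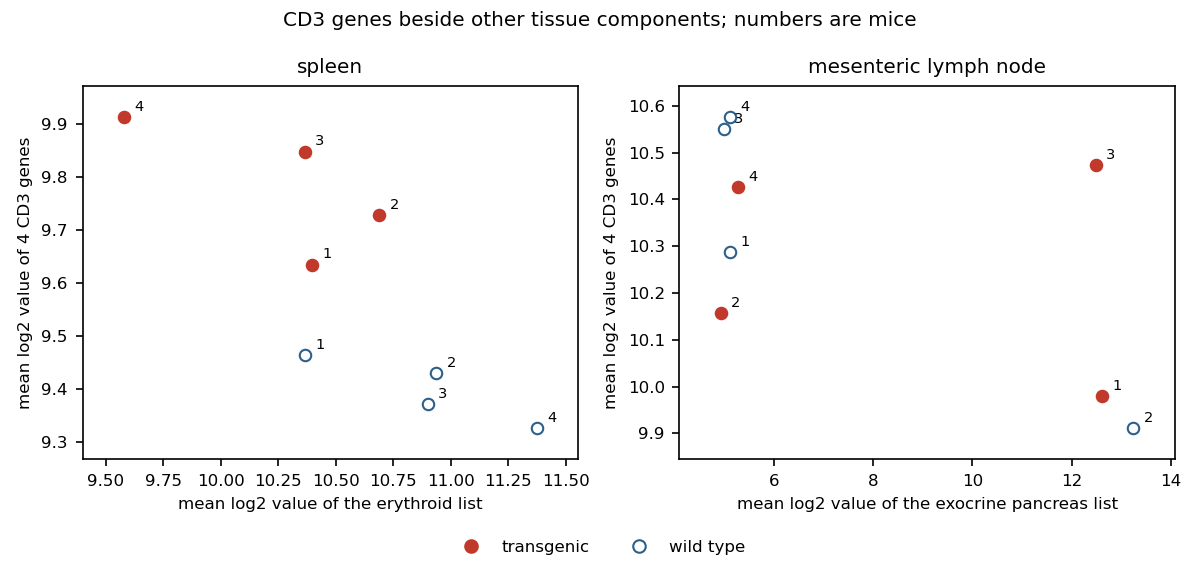
The vertical axis is the mean log2 value of Cd3d, Cd3e, Cd3g and Cd247 on each array; the horizontal axis is the mean log2 value of the erythroid list in spleen (left panel) or of the exocrine pancreas list in mesenteric lymph node (right panel), with 4 transgenic and 4 wild type mice numbered. In spleen transgenic mouse 4 lies at the upper left (9.58, 9.91) and wild type mouse 4 at the lower right (11.37, 9.33); in mesenteric lymph node 3 arrays lie far to the right, at 12.48 to 13.25.

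In peripheral lymph node the members leaned the other way, by smaller amounts. Lat had the smallest p of the members there, with 10.90, 10.97, 11.09 and 11.05 in transgenic nodes, against 11.25, 11.26, 11.28 and 11.25 in wild type nodes. All transgenic values were below all wild type values (-0.26 ± 0.08, adjusted p = 0.422). Cd3e read 10.37, 10.65, 10.48 and 10.60 in transgenic nodes, against 10.66, 10.79, 10.73 and 10.82 in wild type nodes, also without overlap (-0.23 ± 0.09, adjusted p = 0.565). Cd8a read 9.73, 9.89, 10.07 and 9.87 in transgenic nodes, against 10.09, 10.08, 10.08 and 10.35 in wild type nodes, and the highest transgenic value lay just below the lowest wild type one (-0.26 ± 0.11, adjusted p = 0.574). These 3 genes were the members with all transgenic values below all wild type values, beside 2.92% of all probe sets.

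The other receptor genes in peripheral lymph node overlapped. Cd247 read 9.86, 9.91, 10.11 and 9.83 in transgenic nodes, against 10.06, 10.19, 10.37 and 10.22 in wild type nodes (-0.28 ± 0.10, adjusted p = 0.513). Cd3d read 11.68, 11.76, 11.93 and 11.78 in transgenic nodes, against 11.92, 11.90, 12.22 and 12.07 in wild type nodes (-0.24 ± 0.10, adjusted p = 0.597). In each of these genes a single transgenic mouse, mouse 3, reached the wild type range. Cd3g, Zap70, Cd8b1 and Cd2 differed by -0.18 ± 0.09, -0.20 ± 0.10, -0.22 ± 0.13 and -0.13 ± 0.08. Cd4 alone was higher in transgenic nodes (0.23 ± 0.24, adjusted p = 0.849), with 9.73, 9.62, 9.66 and 9.61 in transgenic nodes, against 9.87, 9.74, 8.63 and 9.48 in wild type nodes. Wild type mouse 3 stood below the other 3 wild type nodes, and without it the Cd4 difference was -0.04. Without normalisation the median of all probe sets was 0.18 higher in transgenic nodes, and the 10 genes then had a median of -0.06, or -0.24 relative to that shift, with Cd2 turned to a higher value. Muscle transcripts were present on some of these arrays, the list averaging 5.00 to 7.13 in transgenic nodes and 5.03 to 9.88 in wild type nodes, and without the 3 arrays with the most of them the median of the members was -0.16. A proliferation list (11 of 12 genes measured) averaged 8.32 to 9.15 in transgenic peripheral nodes and 7.53 to 7.75 in wild type ones, and its part in the members' values was not tested.

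In thymus Cd2 ran against the other members. It read 10.03, 10.09, 10.02 and 10.03 in transgenic thymi, against 9.88, 9.68, 9.82 and 9.88 in wild type thymi. The groups did not overlap (0.22 ± 0.08, 95% interval 0.02 to 0.43, adjusted p = 0.663), and 2.54% of all probe sets had all transgenic values above all wild type values. The sources do not say whether the construct carries a transcribed part of Cd2, so reads of such a part and of the endogenous gene cannot be told apart. The 9 other members were lower, by 0.05 to 0.22 log2 units. Cd247 read 11.08, 11.10, 11.15 and 11.16 in transgenic thymi, against 11.27, 11.25, 11.27 and 11.33 in wild type thymi, without overlap (-0.16 ± 0.07, adjusted p = 0.700). Cd3g read 11.71, 11.82, 11.84 and 11.78 in transgenic thymi, against 11.87, 11.89, 11.91 and 11.94 in wild type thymi, also without overlap (-0.12 ± 0.08, adjusted p = 0.779). The background for a gene wholly below was 2.07%. Cd4 differed by -0.22 ± 0.13, Cd8b1 by -0.16 ± 0.09 and Cd8a by -0.12 ± 0.08, and none passed the test.

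Some lists of other cell types also lay apart between the genotypes in thymus. These list means were not tested. The B cell list (11 of 12 genes measured) averaged 6.40 to 7.01 in transgenic thymi and 6.13 to 6.33 in wild type thymi, without overlap. Within it Cd79a, a chain of the B cell receptor, read 7.38 to 8.74 in transgenic and 6.95 to 7.30 in wild type thymi. The genotypes overlapped for Cd79b (8.05 to 8.45 in transgenic, 7.87 to 8.05 in wild type) and Ms4a1 (7.26 to 8.53, 6.62 to 7.45). The natural killer cell list averaged 6.51 to 6.65 in transgenic thymi and 6.19 to 6.48 in wild type thymi. Both cell types can carry CD2 in the mouse, and their part in the Cd2 value was not tested. The macrophage list (11 genes measured) also lay higher, at 8.95 to 9.05 in transgenic thymi and 8.73 to 8.90 in wild type thymi. The dendritic cell list overlapped, at 6.99 to 7.46 in transgenic and 7.03 to 7.21 in wild type thymi. The lists of receptor-near signalling genes and of genes that restrain the receptor lay lower, at 9.60 to 9.66 and 9.59 to 9.63 in transgenic thymi, against 9.68 to 9.76 and 9.63 to 9.77 in wild type thymi; the restraint groups lay apart by less than the last digit given. The part of any of these in the values of the other members was not tested.

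In the mesenteric lymph node no member had its genotypes apart, beside 3.94% of all probe sets. Differences ran from -0.39 ± 0.31 for Cd8b1 (95% interval -1.15 to 0.36) to 0.14 ± 0.11 for Cd4, and the adjusted p values lay between 0.972 and 0.997. Cd3d illustrates the spread, with 10.68, 10.97, 11.40 and 11.34 in transgenic nodes, against 11.11, 10.75, 11.55 and 11.49 in wild type nodes. The ranges of the genotypes overlapped widely. Transgenic mouse 1 and wild type mouse 2, which were low, were among the 3 arrays with pancreas transcripts, and transgenic mouse 3, the third of them, was not low. Every Cd3d value of mice 1 and 2 lay below every value of mice 3 and 4 (at most 11.11 against at least 11.34). That split included arrays without pancreas transcripts. It also held for Cd3g, Cd247, Zap70, Cd8a, Cd8b1 and Cd2 but not for Cd3e, Lat and Cd4. The share of all probe sets with this split was not counted, so it cannot be read as particular to these genes. The parts of mouse number and of pancreas tissue were not tested. Without the 3 arrays with pancreas transcripts the median of the members was -0.15. The direction depended on the scaling: with arrays brought to a common median 8 of the 10 members were higher in transgenic nodes and their median was 0.12.

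The difference of the transgenic effect between tissues was tested within mice, and no member passed after adjustment in any of the 6 pairs. All 6 pairs had 0% of probe sets called except thymus against spleen, with 0.0074%. These pairs share tissues, so they are not separate evidence. The effect in spleen was above that in peripheral lymph node for all 10 genes, and for 6 of them at an unadjusted p under 0.05 (background 3.82% higher). Cd3d had a difference of 0.82 ± 0.16 (adjusted p = 0.495) and Zap70 of 0.81 ± 0.17 (adjusted p = 0.528), and Cd3g, Cd247, Cd3e and Cd2 had 0.63 ± 0.15, 0.52 ± 0.17, 0.50 ± 0.15 and 0.41 ± 0.16. The effect in thymus was below that in spleen for all 10, and for 6 at an unadjusted p under 0.05 (background 3.7% lower), led by Cd4 at -0.97 ± 0.21 and Zap70 at -0.71 ± 0.14 (adjusted p = 0.504 for each). Between spleen and mesenteric lymph node 5 genes were higher in spleen at an unadjusted p under 0.05 (background 2.29% higher), and Cd3d was at 0.69 ± 0.23.

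The CD3 genes were also averaged on each array. The mean of Cd3d, Cd3e, Cd3g and Cd247 was 9.63, 9.73, 9.85 and 9.91 in transgenic spleens, against 9.46, 9.43, 9.37 and 9.33 in wild type spleens. In peripheral lymph node it was 10.74, 10.89, 10.97 and 10.85 in transgenic mice, against 10.99, 11.06, 11.19 and 11.13 in wild type mice. Both sets lay apart, in opposite directions, and the means differed by 0.38 in spleen and -0.23 in peripheral lymph node. This mean is a level, which moves with the scaling of an array: without normalisation the differences were 0.18 and -0.08, and the genotypes overlapped in both tissues. A difference between genes on 1 array cancels a factor common to that array, up to the pseudocount, and it is compared here only between samples, since separate probe sets share no scale. Cd2 minus the CD3 mean was -1.55 ± 0.07 in transgenic thymi and -1.89 ± 0.11 in wild type thymi (SD, n = 4 each). The groups did not overlap, and their means differed by 0.34. In each combination of 3 pseudocounts with and without normalisation they did not overlap either, with means that differed by 0.32 to 0.41. In peripheral lymph node the same measure was -0.31 in transgenic and -0.42 in wild type mice on average, apart with normalisation and overlapping without it.

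The balance of the coreceptors was followed by Cd4 minus Cd8a. It was -0.77, -0.46, -1.26 and -0.59 in transgenic spleens, against -1.04, -1.19, -1.74 and -2.20 in wild type spleens. The means were 0.77 apart, and transgenic mouse 3 lay within the wild type range. In peripheral lymph node the mean was -0.24 in transgenic mice and -0.72 in wild type mice, again with overlap. In thymus the means were -1.09 and -0.99 for transgenic and wild type mice, and in mesenteric lymph node -0.23 and -0.30. The size depended on the CD8 gene taken. For Cd4 minus Cd8b1 the transgenic mean was above the wild type one by 0.57 in spleen, 0.44 in peripheral and 0.53 in mesenteric lymph node. In thymus that difference was -0.06, and the genotypes overlapped in every tissue. Wild type mouse 3 had the lowest Cd4 value of its group in peripheral lymph node, mesenteric lymph node and thymus and the second lowest in spleen.

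**Figure D4:**
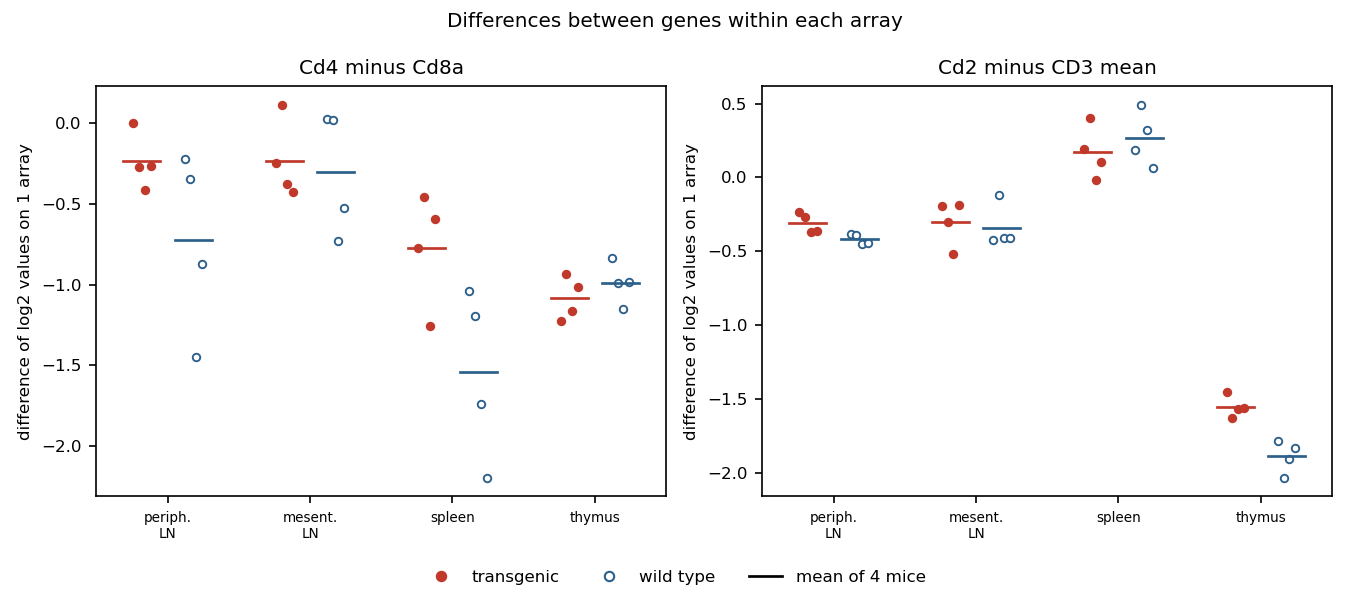
Points give, for each array, the log2 value of Cd4 minus that of Cd8a (left) and of Cd2 minus the mean of the 4 CD3 genes (right), with 4 transgenic (filled) and 4 wild type (open) mice per tissue and lines for the means. On the right the thymus groups stand apart, with means of -1.55 in transgenic and -1.89 in wild type mice; on the left the genotypes overlap in every tissue.

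The 10 other probe sets of Cd247, Zap70, Cd4 and Cd8a gave a check on the representatives. Of these, 8 passed the filter on low values in each lymph node, 7 in spleen and 10 in thymus, and none was called between the genotypes. Over the wild type tissues 8 passed it. Of these, 7 were called higher in thymus than in peripheral lymph node (background 28.7%). In spleen 7 were called lower than in peripheral lymph node (background 21.2%) and 5 lower than in mesenteric lymph node (background 18.5%). In mesenteric against peripheral lymph node 1 was called, lower (background 0.988%). The Cd8a probe sets differed in spleen by -0.06 (the representative), -0.04, 0.11, 0.25 and 0.31, and in peripheral lymph node by -0.26, -0.04, -0.16, -0.28 and -0.32, so the sign was shared in peripheral lymph node but not in spleen. The second Zap70 probe set, 1440178_x_at, was the 1 with 0.20 ± 0.14 in spleen. The third, 1439749_at, was the 1 with -0.00 there. It had means within 0.18 log2 units of each other over the tissues of each genotype and so did not show the ladder seen for the gene. The second Cd4 probe set, 1427779_a_at, was at or below 0 on 19 of 32 arrays.

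Part of the spread within these genes went with RNA integrity. The Cd8a probe set 1451673_at read 7.60 in mesenteric lymph node of transgenic mouse 1, whose Actb ratio was 3.10, against 8.73 to 9.67 on the 7 other arrays. The Cd247 probe set 1452539_a_at read 5.35 there, against 6.89 to 7.87 on the others. In spleen the same Cd8a probe set read 7.85 to 8.50 in mice 1 and 2 and 8.63 to 9.20 in mice 3 and 4. The representative of Cd8b1 split in the same way there, with at most 9.03 in mice 1 and 2 against at least 9.26 in mice 3 and 4. The Cd4 probe set 1427779_a_at read 4.26, 5.01, 7.74 and 7.78 in transgenic thymi, against 7.45, 6.40, 8.26 and 8.10 in wild type thymi (-1.35 ± 0.85), and its lowest values were those of transgenic mice 1 and 2, whose Actb ratios of 2.25 and 2.23 were the highest of the thymi. On the same mesenteric array the representative probe sets read 9.24 for Cd8a and 9.04 for Cd247, both within the range of the other 7 arrays.

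**Figure D5:**
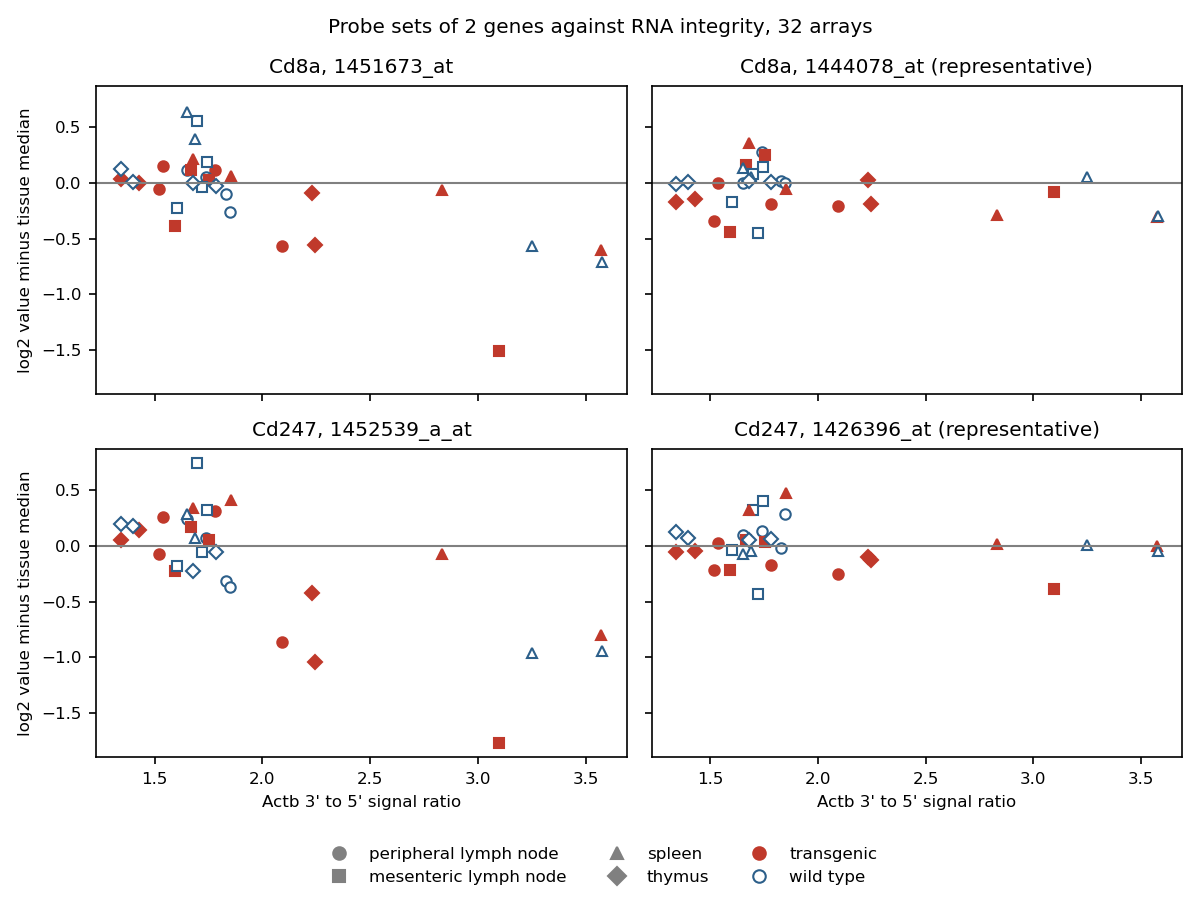
Each panel plots 1 probe set, with the log2 value minus the median of its tissue on the vertical axis and the Actb 3' to 5' signal ratio of the array on the horizontal axis, for 32 arrays (shape for tissue, filled for transgenic and open for wild type). The Cd8a probe set 1451673_at and the Cd247 probe set 1452539_a_at lie lowest on the array with a ratio of 3.10 and low in the spleens with ratios of 2.83 to 3.58. On the array with a ratio of 3.10 the representative probe sets of both genes lie within the range of the other arrays of its tissue.

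Each gene's profile over the 32 arrays was then set against the mean profile of the 4 CD3 genes, after centring, by the root mean square of the differences. That mean contains the CD3 genes themselves, so each of them was set against the mean of the other 3 instead: Cd3g was at 0.0888, Cd3d at 0.168, Cd3e at 0.241 and Cd247 at 0.296, with ranks 1, 2, 8 and 23 among 18190 genes. Against the mean of all 4, Zap70 was at 0.188, Lat at 0.197 and Cd4 at 0.406, with ranks 5, 7 and 95 among 18193 genes. Cd8b1 and Cd8a followed at ranks 405 and 435, and Cd2 was at rank 3553 with 0.768. The 5 genes outside the members with the most similar profile were Skap1 (0.144), an adaptor of T cell adhesion signalling, Fgf13 (0.190), Cd96 (0.207), a receptor of T and natural killer cells, Abhd8 (0.210) and Sh2d2a (0.216), which encodes a T cell adaptor. Arrays of 1 tissue share much of their profile, so these ranks rest mainly on the 4 tissues.

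The wider pathway was read from fixed lists, of which none had a gene called between the genotypes in any tissue. In spleen the list of receptor-near signalling genes (23 of 26 measured) had a median of 0.18, with 19 of 23 above 0, and the surface partners (14 of 16 measured) had a median of 0.21, with 13 of 14 above 0. The genes that restrain the receptor had a median of 0.13, with 18 of 19 above 0, and the lineage factors one of 0.11. The median of all probe sets in spleen was 0.01. Among the partners Pdcd1, the inhibitory receptor PD-1, was at 1.19 ± 0.19 (adjusted p = 0.321), and Icos, a costimulatory receptor, was at 0.61 ± 0.15. Among the lineage factors Tox was at 1.11 ± 0.18 in spleen (adjusted p = 0.321) and at 0.79 ± 0.10 in mesenteric lymph node (adjusted p = 0.296). Skap1 and Fyn, an adaptor and a kinase near the receptor, were at 0.42 ± 0.14 and 0.39 ± 0.16 in spleen, and Cd5 and Sit1, which damp receptor signals, at 0.45 and 0.39.

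In peripheral lymph node these lists had medians of -0.02 for signalling, -0.08 for restraint, -0.07 for partners and -0.03 for lineage factors, against -0.22 for the 10 members. Cd27 was at 0.39 and Pdcd1 at -0.31 in that tissue. In thymus Runx3, a factor of the CD8 lineage, was at 0.44 ± 0.10 (adjusted p = 0.484), Cd27 at -0.36 and Cbl, a ligase that marks receptor proteins for breakdown, at -0.22. None of these passed the test.

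Between the wild type tissues the pathway followed the members in part. In thymus against spleen, where 26.7% of all probe sets were called higher and 23.8% lower, 15 of the 23 signalling genes were higher and 4 lower, 12 of the 19 restraint genes were higher and 5 lower, 9 of the 14 partners were higher and 3 lower, and 9 of the 12 lineage factors were higher and 2 lower. Themis, which acts in thymocyte selection, was higher by 3.66, Trat1, a partner of the receptor chains, by 3.65, Thy1, a surface glycoprotein of thymocytes and T cells, by 3.24 and Bcl11b, a factor of T cell commitment, by 3.03. Against peripheral lymph node (28.7% of all probe sets higher and 28.6% lower) 12 signalling genes were higher and 6 lower in thymus, and Icos and Malt1, a protease of antigen receptor signalling, fell by 1.53 and 1.51. In spleen against peripheral lymph node, where 21.2% of all probe sets were called lower and 18% higher, 14 of the signalling genes were lower and 1 was higher, and 12 of the 14 partners were lower and none was higher.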

How the data were processed

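The authors deposited 1 table of linear intensity, 45101 probe sets by 32 arrays, with 14.9% to 18.4% of each array below 0. Its algorithm and any scaling were not given in the sources used here. RNA was total RNA labelled with biotin, per the labels' protocols. Deposited intensities below 0 became 0, and the log2 of each plus 16 was used. Trimmed means differed by a ratio of 2.58 between arrays, so values were quantile normalised, within each tissue for genotype fits and over all 32 arrays for comparisons of tissues and for differences of effects. After 64 control probe sets were left out, the 27022 probe sets above the 40th percentile of the mean were tested with limma 3.58.1 in R 4.3.3, and an adjusted p under 0.05 (Benjamini-Hochberg) was called. Tissue contrasts used the 4 wild type mice, and differences of the transgenic effect used each mouse's difference between 2 tissues. The number of arrays limits the precision. The fits were tested on simulated data.

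Symbols came from the array's annotation table, which can be old; 34945 probe sets had 1 symbol, 932 had several and 9160 had none. A gene's representative was its brightest probe set by the mean of all arrays. All 10 members are named, other probe sets by count or singly where they differ, up to 4 genes with the smallest p from each other list, and the 5 genes most like the CD3 profile. The members and lists were chosen with earlier results of these data known. Tissue contrasts come from the same animals, as the labels number each mouse in all 4 tissues, and were repeated with the mouse as a block. Alternatives were pseudocounts of 1 and 64, no normalisation or a common median, no filter or the 60th percentile, 1 fit over all arrays, array weights, blocks and leaving out arrays; the split into mice 1 and 2 and mice 3 and 4 was added after seeing the data.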

Additional observations from a re-analysis of the deposited data

Results flagged for a closer look

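Of 80 sets of 4 arrays (10 genes, 4 tissues and 2 genotypes), 2 held a mouse that stood further from the other 3 than Dixon's 95% critical value allows, and chance gives about 1 in 20. In transgenic spleens Cd3d read 10.95 in mouse 4, against 10.71 to 10.73 in the other 3. Without that mouse the Cd3d difference in spleen was 0.51, against 0.57 with all 8 arrays. In wild type peripheral lymph node Cd8a read 10.35 in mouse 4, against 10.08 to 10.09 in the other 3.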

How the results depend on the processing

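With 2927 recomputed values for single genes, 2772 stayed called, or stayed uncalled and moved by less than the spread between mice. Another 95 stayed uncalled but moved by more, 52 were no longer called and 8 became called. Among the 2927 values 102 changed sign, of which 0 were called in either setting. In genotype comparisons 0 members were called under each alternative except 1 fit over all 32 arrays, which called 1 in spleen. The same fit called 223 of all probe sets there. Unadjusted counts ran from 0 to 8 in peripheral lymph node, 0 to 3 in mesenteric lymph node, 0 to 6 in spleen and 0 to 5 in thymus, and the members' medians from -0.26 to -0.06, -0.19 to 0.12, 0.08 to 0.42 and -0.19 to -0.09 in the same order. Without normalisation 6 members were called in thymus against peripheral lymph node and 5 in spleen against mesenteric lymph node. Calls over all probe sets also fell in thymus against peripheral lymph node, from 15482 to 10446. The cause was not tested.

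Mesenteric against peripheral lymph node was the least firm contrast. Its 4 calls became 1 with a pseudocount of 1, 1 with a common median, 1 with the mouse as a replicate block and 0 without normalisation. With each wild type replicate left out in turn they were 0 to 0, and 0 with mice 1 and 2 alone and with mice 3 and 4 alone, fits of fewer samples. Over all probe sets 746 were called there, and 119 to 929 under the alternatives. Calls over all probe sets between genotypes ranged from 0 to 112 in peripheral lymph node, 0 to 3 in mesenteric lymph node, 0 to 223 in spleen and 0 to 58 in thymus.

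No label ties a transgenic mouse to the wild type mouse of the same number. The residual correlation of equal numbers ran from -0.02 to 0.33 in peripheral lymph node and -0.44 to 0.27 in mesenteric lymph node. It ran from 0.02 to 0.32 in spleen and -0.02 to 0.33 in thymus. In spleen all 4 pairs were above 0, and in no tissue were all 4 above 0.1. Unequal numbers gave -0.37 to 0.25, -0.30 to 0.39, -0.38 to 0.24 and -0.31 to 0.28 in the same order of tissues. The Actb ratio did follow the numbers, at 2.83 to 3.58 in spleens and 1.68 to 2.25 in thymi of mice 1 and 2, against 1.65 to 1.85 and 1.34 to 1.43 in mice 3 and 4 of both genotypes. With mouse number as a replicate block 0 members were called in each tissue. Differences of the effect called 0 members with no replicate block as well. Signal near background limits the second Cd4 probe set.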
